A study of Sus scrofa with 61 samples.

Results

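The genes described here are 10 regulators that set how much oxidative metabolism a muscle builds: the coactivators PPARGC1A and PPARGC1B, the fatty acid receptors PPARA, PPARD and PPARG, the orphan receptors ESRRA and ESRRG, the respiratory factor NRF1, the mitochondrial factor TFAM and PRKAA2, the catalytic alpha 2 subunit of the energy sensor AMPK. Members were found by name, as every probe of the porcine array whose gene name, or symbol in the gene lists of the study, is 1 of the 10. By this rule 19 probes stood for 8 of the 10 genes, among 10351 gene symbols with a measured probe. No probe carries the name of PPARGC1B or NRF1, so neither gene is described. All 19 probes were kept by the filter on dim probes, and the main probe of each of the 8 genes was well above background on all 61 arrays.

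Longissimus muscle was taken from 61 male fetuses at 90 or 110 days of gestation, shortly before the term of the pig, and the RNA of each fetus was hybridized alone to 1 one-colour array. LW fetuses are purebred Large White, and MS fetuses are purebred Meishan, a breed known for the high survival of its piglets. LWMS are crosses of MS sows with LW boars, MSLW the reverse crosses of LW sows with MS boars, and no agent or allele was introduced in any group. Each genotype had 8 fetuses at day 90. At day 110 there were 9 LW, 7 MS, 8 LWMS and 5 MSLW fetuses. Semen of both breeds was pooled at insemination, which means that littermates can differ in the breed of their sire. The sow of each fetus is not in the labels, so littermates count as separate fetuses here, and a difference between dam breeds and one between the sows that were sampled cannot be told apart.

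PGC-1 alpha, the product of PPARGC1A, does not bind DNA itself. It is recruited by PPAR and ERR receptors and by nuclear respiratory factors, and with them it raises transcription of genes for fatty acid oxidation, the citric acid cycle and the respiratory chain. NRF1 in turn drives TFAM, which enters mitochondria and packs and transcribes their DNA. AMPK responds to a low energy charge and activates PGC-1 alpha, and in postnatal muscle PGC-1 alpha is known for its high activity in slow oxidative fibres and after endurance training.

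The array reads each gene through probes of 60 bases. The first 30 bases of the probes on which the results turn are given 5′ to 3′ as the scanner files hold them, in lower case because no base is singled out. The 3 probes of PPARGC1A are shown because they differ on the breed comparison, those of ESRRA and ESRRG because they carry the largest age and breed differences among the main probes, and a pair of TFAM probes because one of them alone separates the breeds.
PPARGC1A main probe O9324: ttccatgaagacacacgtaaaacctagaac
PPARGC1A probe A_72_P077836: aagcacatgtttattcatgggtgtcagctt
PPARGC1A probe A_72_P297579: tttaaatgtgcagtacacatcagcctcact
ESRRA main probe O14528: cagagactctattttaatgtatatttgctg
ESRRG main probe O5649: cttgtctatagctgtagatgggcttcacat
ESRRG probe A_72_P031731: caatcagttcagatgtgtaactcaaattat
TFAM main probe A_72_P149791: ctgtaatcatgtgattttgctattgctttt
TFAM probe A_72_P579182: tgaagaaaggaaagcattgtcatgctgttc
The probes A_72_P077836 and A_72_P297579 carry the older array name PPARGC-1 and stand outside the 19. Of the 22 pairs of probes of 1 gene, 4 share a run of 30 or more bases, 3 of them among the PPARG probes and 1 in TFAM. The other 18 pairs, among them all pairs of PPARGC1A and ESRRG, share runs of at most 9 bases.

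Signals are log2 values after quantile normalization over the arrays, and a gene was called when its moderated two-sided limma test passed 1% after Benjamini-Hochberg adjustment over all 42436 kept probes. Between 34346 and 45683 probes per array were well above background. The arrays lay on 8 slides that each held 6 to 8 of the 8 groups. One MS array of day 90 had the fewest probes above background, and 3 arrays of day 90 had over 500 spots marked as non-uniform, and results were also computed without these 4. The number of arrays, and of the sows behind them, limits the precision of each value. Littermates share a sow and, taken by caesarean, a gestational day, so age differences are also differences between sows. Because littermates were counted as separate fetuses, the standard errors, intervals and p-values given here may be too small. Levels are compared between fetuses, at 1 probe or as the mean over the markers of 1 list, never between probes. How many of all kept probes separate the ages or the breeds without overlap is not given. Gaps and overlaps named here therefore only describe single probes. In whole muscle, fewer cells of a type and less RNA per cell cannot be told apart.

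All 10 skeletal muscle fibre markers, ACTA1 and CKM among them, were well above background on all 61 arrays. Markers of other tissue components were also above background, among them all 6 markers of fibroblasts and connective tissue and the adipocyte markers CIDEA and FABP4. The T cell marker CD3E had no kept probe.

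From day 90 to day 110, all 8 measured regulators changed when the age difference was averaged over the 4 genotypes. PPARGC1A, PRKAA2, PPARA, ESRRA, ESRRG and TFAM rose, and PPARD and PPARG fell at their main probes. This count has to be read against the background, since 72.3% of all kept probes were called in the same contrast, 37.3% higher and 35.0% lower at day 110. The median difference of the 8 genes was 0.50 on the log2 scale, beside 0.04 over all kept probes. Of the 19 probes, 15 were called, 13 higher and 2 lower. The 13 include a dim PPARA probe that passed the filter only through groups of day 110, where it is high. The 8 genes were all called again after leaving out the 4 arrays that stand apart, an alternative chosen after seeing the data.

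**Figure D1:**
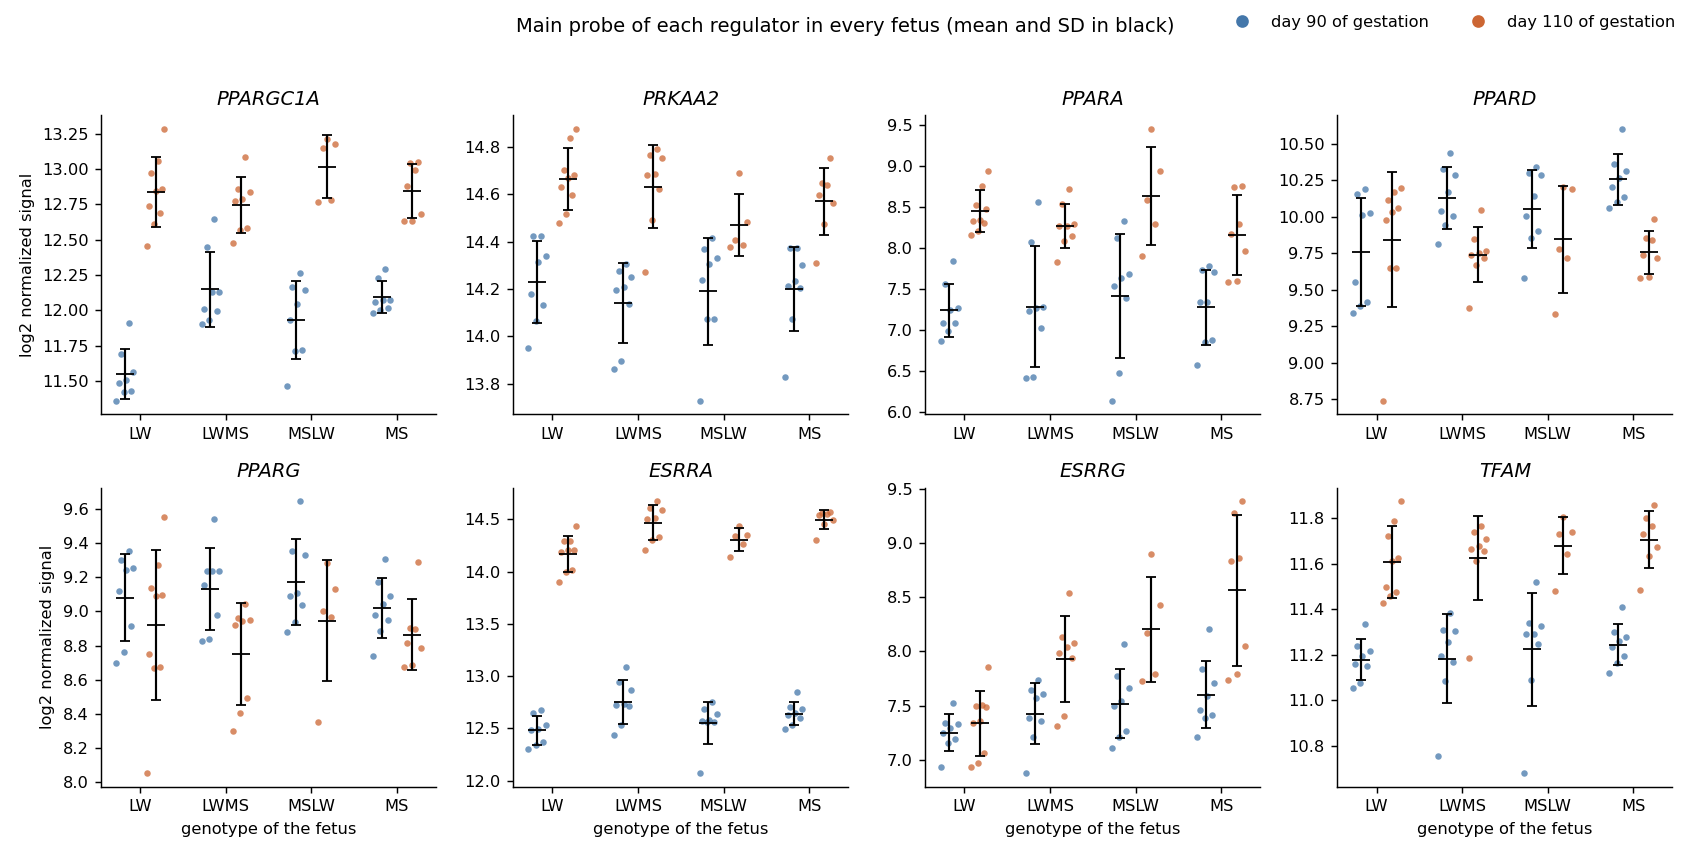
Each point is the log2 normalized signal of 1 fetus at the main probe of the gene named above the panel, by genotype of the fetus on the horizontal axis and by gestational day in colour, with the group mean and SD in black and a separate vertical scale per gene. ESRRA shows a gap between the days in every genotype (highest value at day 90 13.09, lowest at day 110 13.90), whereas the PPARG ranges overlap in all 4 genotypes.

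ESRRA encodes ERR alpha, an orphan nuclear receptor that needs no hormone and acts together with PGC-1 coactivators on genes of the respiratory chain. Its signal ranged from 12.07 to 13.09 (median 12.61) in the 32 fetuses of day 90 and from 13.90 to 14.67 (median 14.34) in the 29 fetuses of day 110. No fetus of the earlier age reached the lowest value of the later age. Without the share of all kept probes that show such a gap, it is not read as particular to ESRRA. The rise was 1.75 ± 0.04 (SE) on the log2 scale, 3.37-fold with a 95% interval of 3.18 to 3.58 (adjusted p = 1.36e-40), and it was the largest among the 8 regulators. It was seen on 8 of 8 slides, with slide differences between 1.59 and 1.94. Within genotypes the rise ran from 1.69 ± 0.08 in LW to 1.86 ± 0.09 in MS, and the difference between these extremes, 0.16 with a 95% interval of -0.07 to 0.40, did not pass (adjusted p = 0.38). With the 75th percentile scaling that difference was 0.45 and did not pass either (adjusted p = 0.015). Under that scaling this contrast moved up by a median of 0.13 for kept probes with a mean log2 level of 12 to 14, as ESRRA has.

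PPARGC1A, the coactivator itself, ranged from 11.36 to 12.65 (median 12.00) at day 90 and from 12.46 to 13.28 (median 12.84) at day 110. The ages overlapped over all fetuses and in LWMS, but not within LW, MS or MSLW. The averaged rise was 0.93 ± 0.06, or 1.91-fold with an interval of 1.76 to 2.07 (adjusted p = 4.37e-22), and lay between 0.56 and 1.29 on the 8 slides. The probes A_72_P077836 and A_72_P297579 gave rises of 0.95 ± 0.05 and 1.1 ± 0.07.

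PPARA, the receptor that senses fatty acids and turns on their oxidation, was dimmer and more scattered. Its main probe ranged from 6.14 to 8.56 (median 7.28) at day 90 and from 7.59 to 9.46 (median 8.30) at day 110, and the ages overlapped in LWMS, MSLW and MS. The rise was 1.07 ± 0.13, or 2.10-fold with an interval of 1.76 to 2.52 (adjusted p = 9.2e-11), and was called within each of the 4 genotypes. The other 2 PPARA probes rose by 1.45 ± 0.09 and 1.36 ± 0.14. They were above background on 58 and 43 of the 61 arrays. The second of them passed the filter on dim probes only through MS (7 of 7 fetuses) and MSLW (5 of 5) at day 110. Its rise is therefore no separate support for that of the main probe. After group and slide means were removed, the 3 probes correlated across the arrays with r from 0.07 to 0.70.

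TFAM and PRKAA2 rose less. TFAM, which sets how much mitochondrial DNA is packed and transcribed, ranged from 10.68 to 11.52 at day 90 and from 11.18 to 11.87 at day 110, with overlap in LWMS and MSLW. Its rise of 0.45 ± 0.04, or 1.37-fold with an interval of 1.29 to 1.45 (adjusted p = 5.35e-14), ran from 0.43 in LW to 0.46 in MS within genotypes. All 4 TFAM probes rose, by 0.40 to 0.60. PRKAA2 ranged from 13.73 to 14.42 at day 90 and from 14.27 to 14.88 at day 110, and the ages overlapped in LWMS, MSLW and MS. Its rise of 0.39 ± 0.05 was 1.31-fold with an interval of 1.23 to 1.40 (adjusted p = 1.49e-11). The size of the rise depends on the processing for other genes too. Over the alternatives it ran from 1.73 to 2.13 for ESRRA, from 0.91 to 1.16 for PPARGC1A and from 0.42 to 0.56 for TFAM. Each of these reached above the interval given for the gene. Kept probes with a mean log2 level of 12 to 14, as ESRRA and PPARGC1A have, shifted by a median of 0.27 between the scalings. PRKAA2, also read at 1 probe only, depends most on the scaling, with its bright probe. With each array scaled to its 75th percentile the rise was 0.88, and the median shift between the scalings was 0.50 for the 1246 kept probes of like brightness, with a log2 level of 14 to 16. In MSLW the rise of PRKAA2, 0.28 ± 0.10, was not called (adjusted p = 0.015), but it was called with that scaling, at 0.74, and with the slide as a block, at 0.29.

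ESRRG encodes ERR gamma, the ERR receptor most tied to slow oxidative fibres. It ranged from 6.88 to 8.21 (median 7.40) at day 90 and from 6.93 to 9.38 (median 7.86) at day 110, and the ages overlapped in every genotype. The averaged rise was 0.56 ± 0.10, or 1.47-fold with an interval of 1.29 to 1.69 (adjusted p = 9.5e-07). Its second probe gave 0.53 ± 0.10, and both probes moved together across the arrays (r = 0.94 after group and slide means were removed).

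PPARD and PPARG were the members that fell. PPARD, the PPAR form known for promoting oxidative metabolism in muscle, fell by 0.25 on the log2 scale (SE 0.08, 0.84-fold, adjusted p = 0.0023) at its main probe, from a median of 10.12 to 9.77. Its probes disagree, since A_72_P443751 rose by 0.60 ± 0.10 (adjusted p = 2.62e-07) with MS values of day 110 from 6.25 to 8.81, and A_72_P165296, above background on 47 of 61 arrays, gave -0.05 ± 0.08. The 3 probes correlated with r of only 0.18 to 0.25, so no direction can be given for PPARD as a whole gene. PPARG, the master regulator of fat cells, fell by 0.23 (SE 0.07, 0.85-fold, adjusted p = 0.0045), from a median of 9.10 to 8.92. This call was lost without replicate 4 of MSLW at day 110 (-0.19, adjusted p = 0.015), and the other 3 PPARG probes, with differences from -0.19 to -0.06, did not pass. Of the 8 adipocyte markers, 3 rose and 4 fell between the ages (37.3% and 35.0% of all kept probes), with a median difference of -0.09. Whether they bear on the PPARG values was not tested.

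Within single genotypes, 5 of the 8 genes were called in LW (background 45.3%), 7 in MS (56.7%), 5 in LWMS (50.9%) and 5 in MSLW (44.6%). PPARGC1A, PPARA, ESRRA and TFAM rose in each of the 4 genotypes. PRKAA2 was called higher in LW, LWMS and MS, and the MS call (0.37) was lost with the median signal and with the deposited values (0.34, adjusted p = 0.012 in both). ESRRG rose in MS by 0.96 ± 0.20 and in MSLW by 0.69 ± 0.21, and gave 0.50 ± 0.19 in LWMS (adjusted p = 0.018) and 0.08 ± 0.18 in LW (adjusted p = 0.72). The MSLW call of ESRRG was lost without replicates 2, 3 or 4 of MSLW at day 110 and without the 4 arrays that stand apart, with values between 0.51 and 0.69. At its main probe PPARD fell in MS, by 0.50 (SE 0.15, adjusted p = 0.0033).

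**Figure D2:**
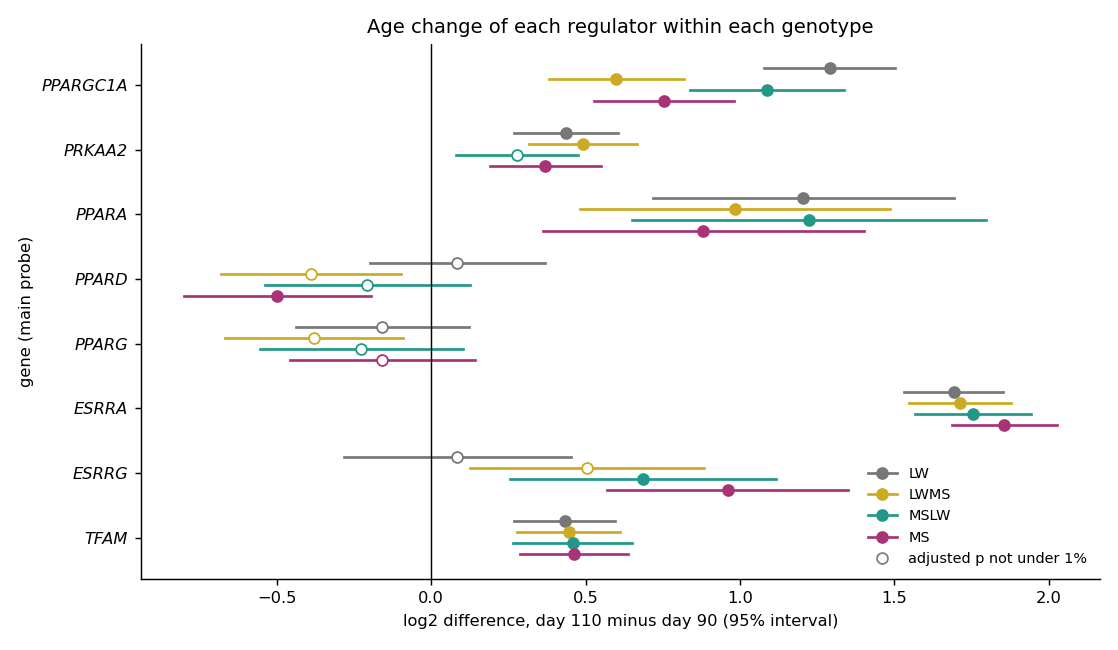
The horizontal axis gives the log2 difference of day 110 minus day 90 with its 95% interval at the main probe of each gene, in 1 colour per genotype, and open circles did not pass 1%. ESRRA lies between 1.69 and 1.86 in all 4 genotypes, PPARGC1A spreads from 0.60 in LWMS to 1.29 in LW, and ESRRG runs from 0.08 in LW to 0.96 in MS.

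Other markers moved with age too. Their counts stand beside the 37.3% of all kept probes that were higher at day 110 and the 35.0% that were lower. On the shortest lists no difference from those shares is read from them. All 6 fibroblast and connective tissue markers fell, with a median difference of -1.49. A mean level was taken as the log2 of the mean linear signal over the markers of a list, so bright markers weigh most. For the fibroblast list it lay between 15.63 and 16.00 over all fetuses of day 90 and between 13.62 and 14.94 over those of day 110. Of the fibre markers, 7 of 10 rose and 1 fell, and their mean level went from between 16.91 and 17.29 to between 17.22 and 17.59. Of the 5 endothelial markers 3 fell and 1 rose, of the 6 macrophage and leucocyte markers 3 fell, of the 4 red cell markers 2 fell and 1 rose, and of the 5 Schwann cell and nerve markers 3 rose. The part of these shifts in the age differences of the regulators was not tested.

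At day 90, PPARGC1A and PPARD were higher in MS than in LW, which makes 2 of 8 genes beside 12.8% of all kept probes (6.23% higher and 6.61% lower in MS). PPARGC1A ranged from 11.36 to 11.91 (median 11.49) in the 8 LW fetuses and from 11.98 to 12.29 (median 12.07) in the 8 MS fetuses, so the breeds did not overlap. The difference was 0.55 ± 0.11, or 1.46-fold with an interval of 1.25 to 1.70 (adjusted p = 1.24e-04). MS was above LW on 8 of 8 slides, by 0.15 to 0.81. In the order of group means at day 90, LW with 11.55 ± 0.18 (SD, n = 8) was followed by MSLW with 11.93 ± 0.28, MS with 12.09 ± 0.11 and LWMS with 12.15 ± 0.26. MSLW, MS and LWMS overlap one another widely. LW shares part of its range with MSLW and just reaches that of LWMS, whose lowest value was 11.90.

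The second PPARGC1A probe, A_72_P077836, gave the same picture at day 90, with 0.46 ± 0.10 (adjusted p = 2.7e-04). The third, A_72_P297579, gave 0.42 ± 0.13 and missed the threshold (adjusted p = 0.011). PPARD differed by 0.50 ± 0.15 (1.41-fold, adjusted p = 0.0097). Its LW values, from 9.34 to 10.19, overlapped those of MS, from 10.06 to 10.60. This call was lost under 5 alternatives, among them the fit without the 4 arrays that stand apart (0.43, adjusted p = 0.047), where 1 of 8 genes was left. The other 2 PPARD probes gave 0.17 and -0.02. Counts of cell type markers at day 90 stand beside 6.23% of all kept probes higher and 6.61% lower in MS. Of these markers, 2 of the 5 Schwann cell and nerve markers, MBP and S100B, were higher in MS, as was KDR, 1 of the 5 endothelial markers. Of the 8 adipocyte markers CIDEA was higher and FABP4 lower, and of the 10 fibre markers MB was higher and TNNT3 lower. None of the 6 fibroblast, 6 macrophage and leucocyte and 4 red cell markers was called. The part of these markers in the PPARGC1A difference was not tested.

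At day 110 the genes that differed between the breeds were ESRRA and ESRRG, both higher in MS. These are 2 of 8 genes, beside 29.0% of all kept probes (13.7% higher and 15.2% lower in MS). ESRRG ranged from 6.93 to 7.86 (median 7.36) in the 9 LW fetuses and from 7.74 to 9.38 (median 8.83) in the 7 MS fetuses, with a small overlap. The MS values were widely spread (8.56 ± 0.69, SD, n = 7) beside those of LW (7.34 ± 0.30, n = 9). The difference was 1.23 ± 0.19, or 2.34-fold with an interval of 1.80 to 3.05 (adjusted p = 5.4e-07). MS was above LW on each of the 6 slides that held both groups. The crosses lay between the pure breeds, with 7.93 ± 0.40 in LWMS (n = 8) and 8.20 ± 0.48 in MSLW (n = 5). The 5 MSLW values ran from 7.73 to 8.90, so each cross overlapped both parental breeds.

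ESRRA ranged from 13.90 to 14.43 (median 14.21) in LW and from 14.31 to 14.57 (median 14.54) in MS at day 110. The difference was 0.33 ± 0.08, or 1.25-fold with an interval of 1.12 to 1.41 (adjusted p = 0.0012), and MS was higher on 6 of 6 slides. The call depends on the signal column. It was lost with the median signal, the deposited values and the normexp background correction, where the difference was 0.30 in each, and the difference was 0.61 with the 75th percentile scaling. Under that scaling this comparison moved up by a median of 0.13 for kept probes with a mean log2 level of 12 to 14, as ESRRA has. For a level of 14 to 16 the median shift was 0.27. PPARGC1A was not called at its main probe at day 110 (0.01, interval -0.21 to 0.23, adjusted p = 0.95). Its probe A_72_P297579 did differ, by 0.44 ± 0.13 (adjusted p = 0.0043).

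At day 110, 4 of the 6 fibroblast and connective tissue markers were lower in MS than in LW (15.2% of all kept probes), with a median difference of -0.79. The mean level of the 6 markers ranged from 13.62 to 14.00 in MS and from 14.26 to 14.94 in LW. In the same comparison 4 of the 10 fibre markers were higher in MS (13.7% of all kept probes). Of the 8 adipocyte markers CIDEA was higher and FABP4 lower in MS, with the other 6 not called. Of the remaining markers, CD14 (1 of 6 macrophage and leucocyte markers) and S100B (1 of 5 Schwann cell and nerve markers) were higher, SLC4A1 (1 of 4 red cell markers) was lower, and 0 of 5 endothelial markers were called. The part of all these in the ESRRA and ESRRG differences was not tested.

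TFAM was not called between the breeds at its main probe, with 0.07 (interval -0.10 to 0.23) at day 90 and 0.10 (interval -0.07 to 0.27) at day 110. Its probe A_72_P579182 stood apart from the other TFAM probes. There, LW ranged from 6.90 to 8.46 and MS from 8.67 to 9.65 at day 90, and LW from 7.52 to 8.82 and MS from 9.63 to 10.32 at day 110, with no overlap at either age. MS exceeded LW by 1.74 ± 0.23 at day 90 (adjusted p = 4.82e-08) and by 2.0 ± 0.24 at day 110 (adjusted p = 6.83e-10). The crosses had mean values between those of the pure breeds at each age, 8.49 ± 0.63 in LWMS and 8.97 ± 0.25 in MSLW at day 90. The other 3 TFAM probes gave breed differences from 0.03 to 0.27, none of them called, so the breed difference was seen at 1 of the 4 probes of the gene. Its cause was not tested.

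**Figure D3:**
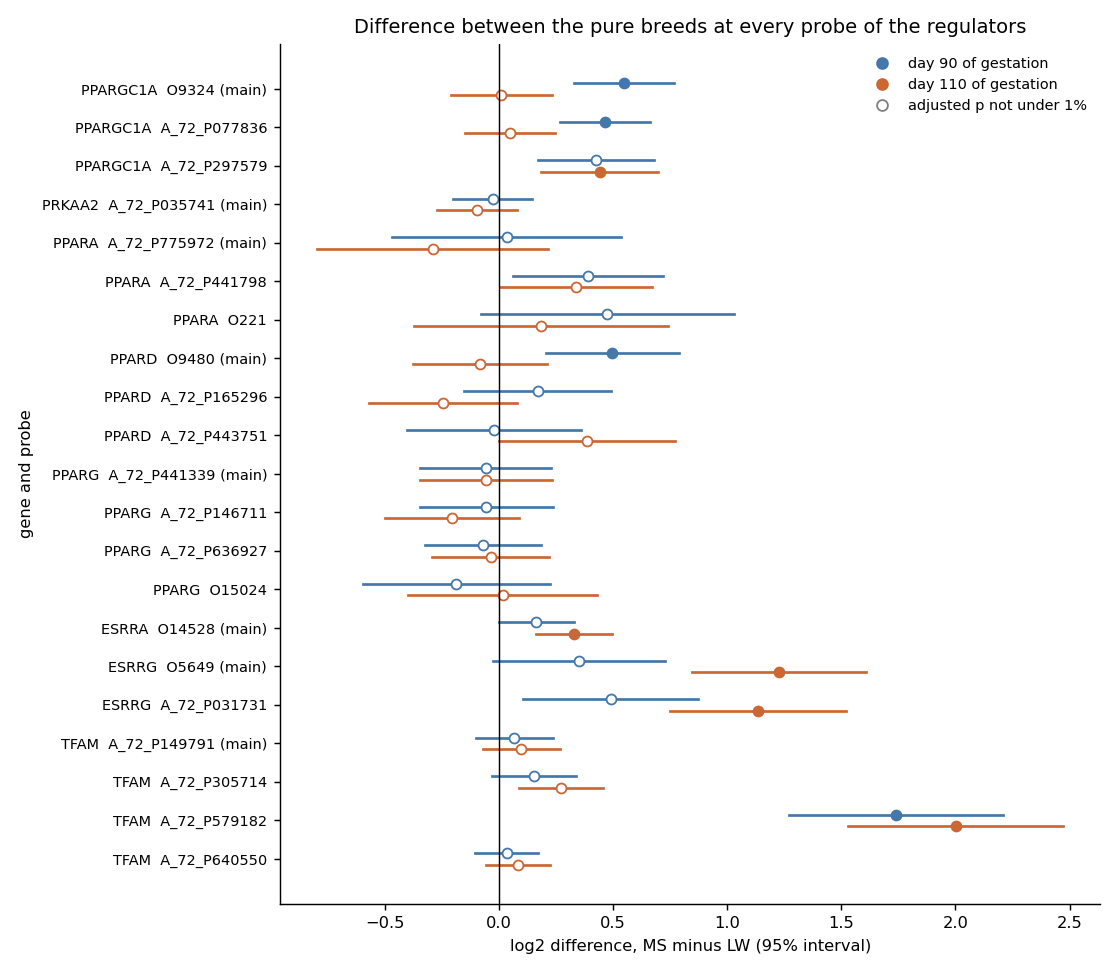
The horizontal axis gives the log2 difference of MS minus LW with its 95% interval at each of the 19 member probes and the 2 further PPARGC1A probes, at day 90 and day 110 in colour, and open circles did not pass 1%. The ESRRG probes stand at 1.23 and 1.14 at day 110, the TFAM probe A_72_P579182 stands at 1.74 and 2.0 apart from the other TFAM probes, and the main PPARGC1A probe is at 0.55 at day 90 and 0.01 at day 110.

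The age change of PPARGC1A differed with the breed of the dam at 1 of its 3 probes, the main probe. The rise was 1.29 ± 0.11 in LW and 1.09 ± 0.12 in MSLW, the genotypes carried by LW sows, and 0.75 ± 0.11 in MS and 0.60 ± 0.11 in LWMS, those carried by MS sows. LW and MSLW fetuses can be littermates, and so can MS and LWMS fetuses. The rises of LW and MSLW can therefore come from the same sows, as can those of MS and LWMS. The SE, intervals and p-values of the dam contrast count each fetus as separate and may be too small. In MSLW at day 110 the 5 values were 12.77, 12.78, 13.15, 13.18 and 13.22. The mean rise was 0.51 smaller on the log2 scale with a MS dam, with a difference of -0.51 ± 0.11 (interval -0.74 to -0.29, adjusted p = 0.0025), and 0.02 smaller with a MS sire (-0.02, interval -0.25 to 0.20, adjusted p = 0.95). PPARGC1A was the 1 gene of 8 called for maternal genotype, beside 2.91% of all kept probes. Its main probe is on the study's list of probes selected in these same data for an interaction of age and genotype. The call is therefore not separate from that selection. For paternal genotype 0 of 8 were called, beside 0.497%, and 1 gene was under an unadjusted p of 0.05.

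The maternal difference was called under each of the 16 alternatives, from -0.59 to -0.44 with adjusted p from 0.0011 to 0.0092. None of these alternatives fitted the sow. The other probes did not pass. A_72_P077836 gave -0.35 ± 0.10 (adjusted p = 0.021) and A_72_P297579 gave 0.04 ± 0.13 (adjusted p = 0.91). In the same contrast 2 of 6 fibroblast markers were lower and 3 of 10 fibre markers higher. Of all 42436 kept probes, 767 were lower and 470 higher. The part of these markers was not tested.

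Between MS and LW alone, the difference in age change of PPARGC1A was -0.54 ± 0.16 (adjusted p = 0.015), that of PPARD -0.58 ± 0.21 (adjusted p = 0.049) and that of ESRRG 0.88 ± 0.27 (adjusted p = 0.021). At 1%, limma called 0 of the 8 genes, beside 5.95% of all kept probes, an ordinary linear model called 0 as well, and 3 were under an unadjusted p of 0.05. With the slide as a block, or with LW and MS fetuses alone in the fit, PPARGC1A was called (-0.51 and -0.54, adjusted p = 0.0094 in both). In the reciprocal crosses, MSLW minus LWMS, 0 of 8 genes were called at day 90 (background 0.500%) or at day 110 (0.912%), and an ordinary linear model called none either. At each age 1 gene was under an unadjusted p of 0.05. For PPARGC1A the difference between the crosses was -0.22 ± 0.11 at day 90 and 0.27 ± 0.12 at day 110.

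Genes that act around the regulators were read from lists, and their counts stand beside the 37.3% of all kept probes that were higher at day 110 and the 35.0% that were lower. Where a gene had a probe on the lists that the study selected in these same data, that probe was read. The counts here and in the breed contrasts can therefore lean toward called genes. Of the oxidative genes known as PGC-1, ERR or NRF1 targets, 18 of 19 measured rose between the ages and 1 fell, with a median difference of 1.41. SOD2, the superoxide dismutase of mitochondria, rose by 2.34 ± 0.07, COX7A1, a muscle subunit of cytochrome c oxidase, by 1.91 ± 0.06, and IDH3A of the citric acid cycle by 1.66 ± 0.07. The member that fell was FNDC5, named after its values were seen, which gave -1.35 and encodes the precursor of the muscle hormone irisin. Of the fatty acid genes known as PPAR targets, 17 of 21 rose and 3 fell, with a median of 1.07. PDK4, which holds pyruvate back from oxidation, rose by 2.49 ± 0.19, ACADVL, which oxidizes very long chains, by 2.36 ± 0.06, and CPT1B, the muscle gate for fatty acid entry into mitochondria, by 2.26 ± 0.07.

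Lists nearer to the regulators themselves had smaller medians. Their counts stand beside the same 37.3% and 35.0% of all kept probes, and on lists this short no difference from those shares is read from them. Of 10 measured genes of AMPK and its activators, 5 rose and 2 fell (median 0.24). The regulatory subunit PRKAB2 rose by 1.41 ± 0.07 and CAB39, part of the kinase complex that activates AMPK, by 1.35 ± 0.05. Of 23 nuclear receptor partners and cofactors, 8 rose and 6 fell (median 0.09). LPIN1, a PGC-1 alpha partner and lipid phosphatase, rose by 2.12 ± 0.14, while RXRG, a retinoid receptor that pairs with PPARs, fell by 2.02 (SE 0.11). Of 8 genes of mitochondrial DNA copying and transcription, 4 rose (median 0.33), led by LRPPRC, which stabilizes mitochondrial messengers, with 1.32 ± 0.05. All 4 measured genes of mitochondrial fusion and fission rose (median 0.56), led by the fusion factor MFN2 with 1.55 ± 0.08.

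**Figure D4:**
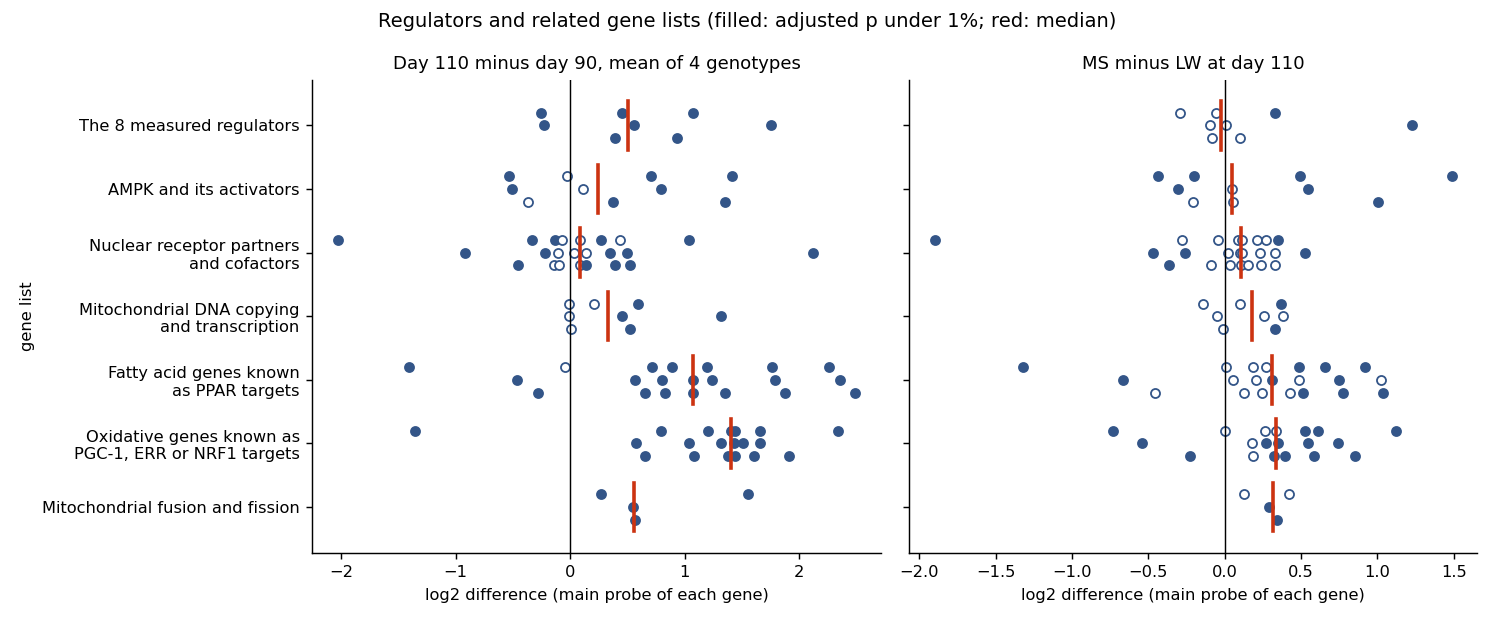
Each circle is the log2 difference of the main probe of 1 gene, at left for day 110 minus day 90 averaged over genotypes and at right for MS minus LW at day 110, filled where it passed 1%, with the list median in red. The oxidative and fatty acid lists sit furthest to the right in the age contrast, with medians of 1.41 and 1.07, and the medians of the breed contrast stay between -0.02 and 0.33.

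In the breed contrast of day 110, with 13.7% of all kept probes higher and 15.2% lower in MS, 11 of 19 oxidative genes were higher and 3 lower in MS (median 0.33, beside 0.01 over all kept probes). VEGFA, a vessel growth factor, was higher by 0.74 ± 0.09 and CYCS, cytochrome c, by 0.85 ± 0.11. Of the fatty acid genes 8 of 21 were higher and 2 lower, CPT1B being higher by 1.04 ± 0.14, whereas the uncoupling protein UCP2 gave -1.32 ± 0.19. Of the AMPK genes 4 of 10 were higher and 3 lower, PRKAB2 differing by 1.00 ± 0.14. At day 90, beside 6.23% of all kept probes higher and 6.61% lower, 5 of the 19 oxidative genes were higher and 2 lower, and 3 of the 21 fatty acid genes were higher and 4 lower.

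After the group and slide means were removed, the main probes of the 8 regulators varied largely apart from each other across the 61 arrays, with r from -0.33 to 0.50 and a median of 0.03 over 28 pairs. The pair with the highest value was ESRRA and TFAM (r = 0.50), which gave 0.35 among fetuses of day 90 and 0.73 among those of day 110. The values of a pair share an array and its normalization, so these correlations are descriptions only. The genes whose residual values were most like those of PPARGC1A over the 61 arrays were ZFAND5 (r = 0.61), POPDC3 (0.56), ATP1B1 (0.56), GPATCH3 (0.55) and H3F3A (0.54). For comparison, the probes A_72_P077836 and A_72_P297579 gave r = 0.70 and 0.55 with the main PPARGC1A probe.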

How the data were processed

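RNA of 61 fetuses was measured on 61 one-colour arrays. The authors deposited 1 scanner file per array, made with Agilent Feature Extraction 10.10.1.1, holding the intensity of each spot not normalized between arrays, and a table of log2 values that the authors normalized by quantiles over the arrays. Deposited other columns used here are the software's marks for non-uniform, saturated and above-background spots. Background-corrected intensity was used, marked spots were set to missing, arrays were quantile normalized, values were log2 transformed and spots of a probe were averaged. Probes were kept where the software's above-background mark held for 80% or more of the fetuses in any group.

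The 8 groups were fitted with limma 3.58.1 in R 4.3.3, with moderated two-sided tests and Benjamini-Hochberg adjustment at 1%. The fit was tested on simulated data with independent errors for each array. That test cannot show how the p-values hold for fetuses that share a sow or arrays that share a slide. The sow, a random effect in the authors' model, could not be fitted. Replicate numbers were given in accession order and pair nothing. Probe names came from the array, the study's lists and RefSeq accessions. Of the probes that carry the symbol of a gene, its main probe is the one on those lists, else named by the array, with the highest mean signal. The study's lists hold probes that it selected in these same data for an interaction of age with fetal or parental genotype. Counts over gene and marker lists can therefore lean toward called probes, which the share over all kept probes does not. Probes named PPARGC-1 in array and lists were not eligible. Rows of the deposited table were matched to spots by their order, and its values differed from the quantile-normalized median signal by a median of 0.021 on the log2 scale, so its scale is log2 and no background was subtracted.

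The members and lists were chosen with earlier results of these data known. All members were named. Of each list, the text names genes among the 3 with the largest age change and the 2 with the smallest adjusted p for MS minus LW at day 110, and besides these FNDC5. Markers of cell types were named as examples or where they were called. Alternatives changed the signal column, background correction (normexp, offset 50), scaling, filter, marked spots, slide, moderation, threshold (5%), fetuses in the fit and, 1 at a time, the MSLW fetuses of day 110. Leaving out the 4 arrays that stand apart was added after seeing the data. No chromosome positions were used. Figures were drawn with matplotlib 3.10.9 in Python 3.11.15.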

Additional observations from a re-analysis of the deposited data

Results flagged for a closer look

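Single fetuses lay far from the rest of their group in 5 of the 64 groups of main-probe values examined, where chance alone gives about 1 in 20. PPARD in LW at day 110 had a lowest value of 8.74 (replicate 1, next value 9.65). PPARG in MS at day 110 had a highest value of 9.29 (replicate 2, next 8.90). ESRRA had a lowest value of 12.07 in MSLW at day 90 (replicate 8) and of 14.31 in MS at day 110 (replicate 2). TFAM in LWMS at day 110 had a lowest value of 11.18 (replicate 8). All 5 lie on slides 1, 2 and 8. At the main probe of PPARGC1A the age change differed by maternal genotype by -0.51, as tested by the interaction, with the rise smaller in fetuses of a MS dam, whereas its probes A_72_P077836 and A_72_P297579 gave -0.35 (adjusted p = 0.021) and 0.04 (adjusted p = 0.91) and did not pass.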

How the results depend on the processing

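Of the single values of the 8 genes under the alternatives, 1270 kept their side of the threshold, 15 lost the call, 11 gained it and 0 turned a called direction. The count of called genes moved by over 1.5 times in these cases. The age change in LWMS went from 5 to 8 at a threshold of 5%. MS minus LW at day 90 went from 2 to 1 with the 75th percentile scaling, without a filter, without moderation, with LW and MS fetuses alone and without the 4 arrays that stand apart, PPARD being lost each time. MS minus LW at day 110 went from 2 to 1 with the median signal, the deposited values and normexp, ESRRA being lost. For the contrast of the age changes of MS and LW the count went from 0 to 1 with a slide block or LW and MS fetuses alone, and to 3 at 5%. The cause was not tested. No paired analysis was possible because no replicate number comes from a label. The slide as a block and the differences within slides stand in its place for arrays that share a slide. Leaving out MSLW fetuses of day 110 in turn moved the PPARG age change between -0.25 and -0.19. Dim probes of PPARA and PPARD, above background on 43 to 58 arrays, are near background in part of the fetuses.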
